A study of Mus musculus with 4 samples.

Results

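The genes described here are 10 integrin subunits, of 23462 genes named on the array: Itga2, Itga3, Itga4, Itga5, Itga6, Itgav, Itgb1, Itgb3, Itgb5 and Itgb8. They are represented on the array by all non-control probes that carry a RefSeq accession of 1 of these genes, which gave 16 probes of 56605. Of the 10 genes, 5 had several probes and 5 had 1.

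Integrins are receptors made of 1 alpha and 1 beta subunit that hold cells to the surrounding matrix and pass signals in both directions across the membrane. The alpha subunit largely sets which ligand is bound, and the beta subunit connects, through talin and kindlin, to the actin cytoskeleton. In melanoma, receptors that contain the alpha v and beta 3 subunits are best known for their part in invasion, and alpha 4 beta 1 and alpha 6 beta 1 for attachment to vessel wall and laminin.

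B16-F10 mouse melanoma cells, grown in medium with 10% fetal bovine serum, received recombinant Cdh1 (100 ng/mL) or none for 24 h. Cdh1 is the mouse symbol for E-cadherin, the adhesion protein of epithelial cells. The 4 one-colour arrays came from 2 independent culture sets, each with 1 control culture and 1 Cdh1 culture, so that control and Cdh1 each had 2 arrays. The labels give no genotype, passage or date, and do not say how else the sets differed. All 4 samples are of 1 cell line. In RNA from a whole culture, fewer cells of a kind and less RNA per cell cannot be told apart.

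The scanner marked 59.3% to 61.3% of the non-control spots of each array as well above background and 0 as saturated. The 7 melanocyte markers listed (Mlana, Pmel, Tyr, Tyrp1, Dct, Mitf and Sox10) were well above background on all 4 arrays. Of the markers of other cells, 3 of 6 for leukocytes, 3 of 5 for fibroblasts, 1 of 4 for endothelium and 2 of 5 for epithelium were so. They were Col1a1, Col1a2 and Pdgfra of fibroblasts, Pecam1 of endothelium and Krt14 and Cdh1 itself of epithelium, and those of leukocytes included Itgam. Others were well above background on none. These were Ptprc and Adgre1 of leukocytes, Dcn and Lum of fibroblasts, Cdh5, Kdr and Tek of endothelium and Epcam, Krt8 and Krt18 of epithelium. Signals below are log2 of the processed intensity relative to the 75th percentile of the array, so that 0 is that percentile. Processed intensities are printed before this scaling, whereas differences and folds are those of the scaled signals. Signals of different probes depend on the probe and are not compared with each other. The median SD between the 10 spots of probes printed repeatedly was 0.0355 to 0.0392 on the log2 scale for probes above the 75th percentile and 0.155 to 0.167 for dimmer probes above background. None of the 16 integrin probes lay in the last 24 rows of spots, which 1 of the alternatives left out, and none was marked as an outlier.

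For 8 of the 10 genes every probe, 14 in all, was above background on each of the 4 arrays by the scanner's test. Itga2, the collagen-binding partner of beta 1, and Itgb8, which pairs with alpha v to bind latent TGF-beta, were well above background on none. The processed intensity of the Itga2 probe (NM_008396) was 2.15, 1.93, 1.97 and 2.64 in control set 1, Cdh1 set 1, control set 2 and Cdh1 set 2. That of the Itgb8 probe (NM_177290) was 2.50, 3.81, 2.24 and 2.92 in the same order. Both genes were left untested, since their values are only bounds. In this order of arrays the brightest probe of Itgb1 (NM_010578), the common beta subunit, read 13712, 13988, 14184 and 13290, and that of Itgb3 (NM_016780) read 1023, 1001, 1152 and 1120. On the log2 scale the 4 values ranged from 4.43 to 4.60 for Itgb1 and from 0.80 to 0.89 for Itgb3.

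**Figure D1:**
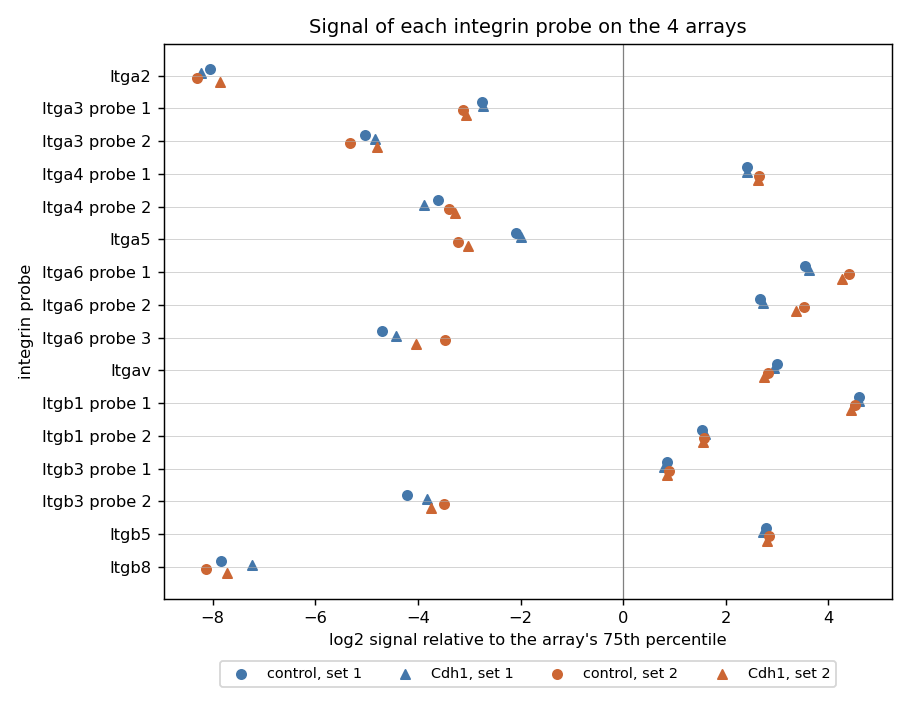
The log2 signal relative to the 75th percentile of each array (x axis) is plotted for the 16 integrin probes (y axis), with blue for set 1, orange for set 2, circles for control and triangles for Cdh1. The points of Itga5 and Itga6 lie furthest apart by colour among the probes tested. With the brightest probe, the sets did not overlap for any of the 8 genes tested, as for 73% of all genes. Itga2 and Itgb8 lie at the left end, not well above background. Points of different probes cannot be set against each other.

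The first comparison was that of the study, Cdh1 against control. No difference in an integrin subunit passed the test, and for the brightest probes the differences within a culture set lay between -0.14 and 0.19. Of the 14 probes tested, 0 passed an adjusted p of 0.05, as was so for 0% of all 32568 probes tested, and 0 had an unadjusted p under 0.05, against 1.72% of all probes (limma with Benjamini-Hochberg adjustment, n = 2 per group). The smallest unadjusted p among them was 0.0673. The median difference over the 14 probes was -0.03, beside -0.0041 over all probes.

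The laminin receptors are taken first. Itga6 (NM_008397), whose product binds laminin with beta 1 or beta 4, had signals of 3.54 and 4.41 in the control arrays of sets 1 and 2 and 3.63 and 4.27 in the Cdh1 arrays. The Cdh1 minus control difference was 0.09 in set 1 and -0.14 in set 2, with a mean of -0.03 and a 95% interval from -1.13 to 1.08. The other 2 Itga6 probes also had a positive difference in set 1, of 0.06 and 0.29, and a negative one in set 2, of -0.16 and -0.56. These 3 probes read the same RNA extracts and are not replicates of the treatment. Itga3 (NM_013565), a laminin receptor subunit that pairs with beta 1, had signals of -2.76 and -3.12 in control and -2.74 and -3.06 in Cdh1 arrays. Its difference was 0.04 (SE 0.20, limma adjusted p 1). A dimmer Itga3 probe gave 0.37 (SE 0.15, limma adjusted p 1), with 0.19 in set 1 and 0.54 in set 2. It was the 1 probe of 14 whose control and Cdh1 arrays did not overlap, which was so for 18.1% of all probes, and the scanner's error estimate for it was 14.7% to 17.3% of the intensity on each array.

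Next are the receptors of fibronectin and vitronectin, many of which recognise an arginine-glycine-aspartate sequence. Itga5 (NM_010577), the classical fibronectin receptor subunit, had signals of -2.10 and -3.22 in control and -1.99 and -3.03 in Cdh1 arrays. It was higher with Cdh1 by 0.10 in set 1 and by 0.19 in set 2, less than the distance between the sets, and its mean difference of 0.14 had an interval from -1.40 to 1.69. Itgav (NM_008402), the shared alpha subunit of the beta 3, beta 5 and beta 8 receptors, had intensities of 4563 and 4419 in control and 4435 and 4126 in Cdh1 arrays. Its difference was -0.07 (95% interval -0.46 to 0.32). For Itgb3 it was -0.04 (-0.33 to 0.25), and for Itgb5 (NM_010580), which with alpha v binds vitronectin, -0.05 (-0.34 to 0.25). Itga4 (NM_010576), whose alpha 4 beta 1 receptor binds Vcam1 and fibronectin, read 2.41 and 2.64 in control and 2.41 and 2.62 in Cdh1 arrays. Its difference was -0.01 (-0.43 to 0.41). Itgb1 itself had signals of 4.59 and 4.51 in control and 4.60 and 4.43 in Cdh1 arrays, a difference of -0.03 (-0.37 to 0.30). These intervals and SEs come from a fit that does not pair the arrays. The distance between the sets thus enters them, most for Itga5 and Itga6. With the set number as replicate block the intervals were -0.060 to 0.35 for Itga5 and -0.31 to 0.26 for the brightest Itga6 probe. Those of the brightest probes of Itga3 (-0.15 to 0.23), Itga4 (-0.20 to 0.18), Itgav (-0.26 to 0.12) and Itgb1 (-0.24 to 0.17) also narrowed. No probe passed there either.

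**Figure D2:**
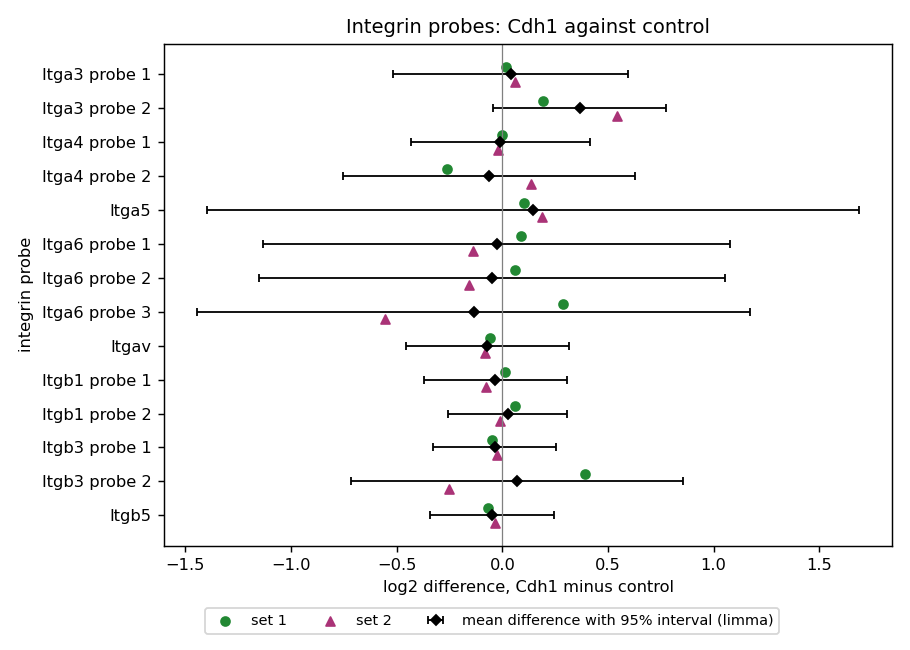
The log2 difference of Cdh1 minus control (x axis) is plotted for the 14 integrin probes tested (y axis), with green circles for set 1, purple triangles for set 2 and black diamonds for the mean with its 95% interval from limma. Every interval spans 0, and those of Itga5 and Itga6 are the widest.

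The brightest probe had the same sign in both sets for 6 of the 8 genes, beside 51.3% of all genes tested. These were Itga3 and Itga5 with a positive sign and Itga4, Itgav, Itgb3 and Itgb5 with a negative one. For Itga4, Itgav, Itgb3 and Itgb5 the differences in the single sets ran from -0.08 to almost 0, and that of Itga4 in set 1 was too small for its sign to carry meaning. None of these 6 differences passed the test, and with 2 arrays on each side, the smallest two-sided p of an exact permutation test is 0.333.

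The second comparison asked how the subunits varied between the 2 culture sets. Itga6 was higher and Itga5 and Itga3 were lower in set 2, while for the brightest probes of Itgb1, Itgb3, Itgb5, Itgav and Itga4 the difference did not pass the threshold. Of the 14 probes, 4 passed an adjusted p of 0.05, 2 of them higher and 2 lower in set 2 (limma with Benjamini-Hochberg adjustment, n = 2 per set). Among all 32955 probes tested 15.5% passed, 6.82% higher and 8.64% lower. By gene, with the brightest probe of each, 3 of 8 passed, 1 higher and 2 lower, beside 19% of all 14640 genes, 7.53% higher and 11.5% lower. The median over the 8 genes was -0.04, against -0.03 over all genes. With 8 genes, this count is no result about integrins as a group, and their median was close to that of all genes. The 2 arrays of a set are its control and its Cdh1 culture. The SEs, SDs and p-values of the set comparison thus rest on the spread within a set. They do not measure how much repeated culture sets vary.

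Itga6 was higher in set 2 with both of its brighter probes, and in both treatment arms. The processed intensity of its brightest probe was 6609 in control and 7110 in Cdh1 cells of set 1, and 13221 and 11847 in those of set 2. Its signal was 3.58 ± 0.06 in set 1 and 4.34 ± 0.10 in set 2 (SD, n = 2), a 1.69-fold difference (log2 0.75, SE 0.08, limma adjusted p 0.0178). The second NM_008397 probe gave the same log2 difference of 0.75 (SE 0.08, limma adjusted p 0.0181). The third probe, of the transcript NM_001277970, was dim and gave 0.81 (SE 0.23), which did not pass (limma adjusted p 0.0959). The difference between the sets was larger in the control arrays, at 0.87 for the brightest probe, than in the Cdh1 arrays, at 0.64. Whether it differs between the arms cannot be tested with 1 array each.

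Itga5 changed in the other direction. Its only probe read 133 in control and 144 in Cdh1 cells of set 1, against 66.8 and 75.2 in set 2. All values of set 1 therefore lay above both values of set 2, by more than the distance between treatments. Its signal fell from -2.05 ± 0.07 to -3.13 ± 0.13 (SD, n = 2), which is 2.12-fold lower in set 2 (log2 -1.08, SE 0.09, limma adjusted p 0.0137). It was -1.13 in the control and -1.04 in the Cdh1 arrays.

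Itga3 was lower in set 2 to a smaller extent. Its brighter probe read 84.0 and 86.2 in control and Cdh1 cells of set 1 and 71.5 and 73.7 in those of set 2. On the scaled signals this was a log2 difference of -0.34 (SE 0.06, limma adjusted p 0.0368), or 1.27-fold. The unscaled intensity of set 2 was 0.851 of that of set 1 in the control arrays and 0.856 in the Cdh1 arrays. The dimmer probe of the same transcript gave -0.12 (SE 0.21) and did not pass (limma adjusted p 0.708). Its sets overlapped, with -5.04 and -4.85 in set 1 and -5.33 and -4.79 in set 2.

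For the remaining subunits tested no difference between the sets passed the threshold, although that of Itga4 did under some alternatives. The brighter Itga4 probe read 3020 and 3058 in set 1 and 3898 and 3799 in set 2, so that the sets did not overlap. Its difference of 0.23 and that of the dim probe, 0.41, did not pass (limma adjusted p 0.0657 and 0.0983). Itgav gave -0.19 (95% interval -0.37 to -0.01, limma adjusted p 0.124). The brightest probe of Itgb1 gave -0.13 (-0.29 to 0.04) and its other probe -0.0021 (-0.16 to 0.16). The brighter probe of Itgb3 gave 0.05 (-0.10 to 0.21) and Itgb5 0.07 (-0.10 to 0.23). The dim Itgb3 probe gave 0.41, mostly from the control arrays, at 0.73 against 0.09 in the Cdh1 arrays. With the brightest probe, the 2 sets did not overlap for any of the 8 genes, which was so for 73% of all genes tested.

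**Figure D3:**
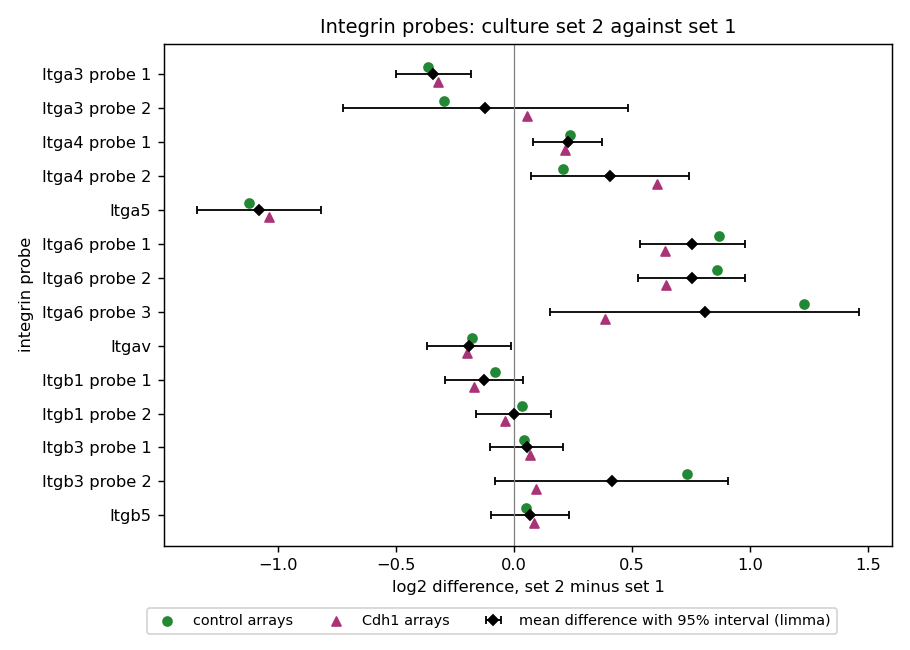
The log2 difference of set 2 minus set 1 (x axis) is plotted for the 14 integrin probes tested (y axis), with green circles for the control arrays, purple triangles for the Cdh1 arrays and black diamonds for the mean with its 95% interval from limma. The 3 Itga6 probes lie to the right of 0 and Itga5 lies near -1.08, with both arms on the same side.

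These calls rest on all 4 arrays. With any 1 array left out, 0 of the 14 probes passed; the adjusted p of Itga5 was then 0.0574 to 0.0794 and that of Itga6 0.0747 to 0.0986, at differences from -1.18 to -0.99 and from 0.68 to 0.82. With the treatment as a block, Itga5 passed (limma adjusted p 0.0364), but Itga6 (0.0513) and Itga3 (0.0752) did not; Itga3 was also lost with median centring (0.0559), where Itga5 and Itga6 passed. Without the filter on dim probes none of the 3 passed (limma adjusted p 0.097 for Itga5). With normexp background correction and quantile normalization the differences of Itga5 and Itga3 were smaller, at -0.67 and -0.13. That run added an offset of 50 to the intensities, which by itself shrinks log2 differences of dim probes.

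The sequences before the annotated start sites of Itga5 and Itga3 are shown because both genes were lower in set 2. They are RefSeq sequences of the build GRCm38.p6, given 5′ to 3′ on the gene's strand, and cover the 250 bases before the start. The Itga5 window is chr15:103366792-103367041 and the Itga3 window chr11:95076715-95076964, both on the minus strand. Capitals mark the GC box GGGCGG or its reverse complement CCGCCC, the motif bound by Sp1-type factors.
Itga5: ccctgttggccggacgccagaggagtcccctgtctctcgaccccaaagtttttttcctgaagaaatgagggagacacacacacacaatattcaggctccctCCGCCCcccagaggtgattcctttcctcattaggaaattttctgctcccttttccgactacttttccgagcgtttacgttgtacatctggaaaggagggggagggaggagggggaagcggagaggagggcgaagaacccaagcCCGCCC
Itga3: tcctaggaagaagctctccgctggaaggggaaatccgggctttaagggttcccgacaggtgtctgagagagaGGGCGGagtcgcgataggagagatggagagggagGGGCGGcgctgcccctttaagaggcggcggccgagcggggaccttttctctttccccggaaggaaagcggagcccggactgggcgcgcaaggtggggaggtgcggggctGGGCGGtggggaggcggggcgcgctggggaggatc

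The Itga5 window held 2 GC boxes and had a GC content of 55.6%, and the Itga3 window held 3 and had 67.6%. A GC box on either strand was found in 32.7% of all 32851 windows of this length, whose median GC content was 52.4%. Of the other motifs searched on both strands, the TATA box TATAAA (12.4% of all windows), the AP-1 site TGANTCA (6.75%), the CRE TGACGTCA (1.55%), the E-box CACGTG (6.02%) and the core CATGTG (12.3%) were in neither printed window. A second annotated start of Itga3, chr11:95069199-95069448 on the minus strand, had a window with 1 GC box and 1 CATGTG and a GC content of 50.8%. Windows were listed for 8 of the 10 genes. Itga4, Itgb1 and Itgb5, which did not pass between the sets, had GC boxes too, and Itgav, Itga2 and Itgb8 had none in theirs. A match says only that these letters are there.

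The other 16 integrin subunits were then examined. A probe of Itga1, Itga7, Itga8, Itga9, Itga10, Itgal, Itgam, Itgb2, Itgb4 and Itgb7 was well above background on all 4 arrays, whereas Itga11, Itgad, Itgax and Itgb6 were so on none. With Cdh1, 0 of the 11 genes tested by their brightest probe passed, beside 0% of all genes, and 0 had an unadjusted p under 0.05, beside 1.1%. Itgae and Itgb7 together form a lymphocyte receptor of E-cadherin. The Itgae probe was well above background on only 2 arrays, 1 of each group, and was not tested. Of the Itgb7 probes, the brighter one, of a predicted transcript, was well above background on each array and gave a Cdh1 difference of -0.06 (SE 0.12, limma adjusted p 1). The other (NM_013566) was so on 3 and gave -0.28 (SE 0.46, limma adjusted p 1). Itgam, also counted among the leukocyte markers, passed the background limit on every array with both probes.

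Between the sets, 2 of the 11 passed, both lower in set 2, a share near the 19% of all genes that passed (11.5% lower). Itgb4, the laminin receptor subunit that pairs with alpha 6 alone, fell from signals of -0.13 and -0.05 in set 1 to -0.46 and -0.50 in set 2 (log2 -0.39, SE 0.06, limma adjusted p 0.0329). Its direction was thus opposite to that of Itga6, with which it forms alpha 6 beta 4. Itga8, an alpha subunit of beta 1 receptors that bind nephronectin, fell from -4.26 and -4.31 to -5.49 and -5.24 (log2 -1.08, SE 0.11, limma adjusted p 0.0163). With the treatment as a block, Itga8 passed and Itgb4 did not, and with 1 array left out neither did.

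Of 31 genes of integrin ligands, 23 were tested, of which 5 passed as higher in set 2, 3 passed as lower and 15 did not pass, with a median difference of -0.08. Among all genes, 7.53% passed as higher and 11.5% as lower. Fn1, fibronectin, was 2.05-fold higher in set 2 (log2 1.03, SE 0.08, limma adjusted p 0.0118), at 3.06 and 2.90 against 1.93 and 1.97 in set 1. All 3 Fn1 probes passed. Fn1 and Itga5, the ligand and the alpha subunit of the same receptor, thus differed in opposite directions. Edil3 (0.65) and Npnt (0.64), both secreted proteins that bind integrins, were also higher, with limma adjusted p-values of 0.0217 and 0.0241. The lowest was Spp1, osteopontin, a ligand of alpha v beta 3, at 1.57 and 1.27 in set 1 and -0.64 and -0.60 in set 2. This was a 4.11-fold lower signal (log2 -2.04, SE 0.12, limma adjusted p 0.00844). Lamb1, the laminin beta 1 chain, was 3.08-fold lower (log2 -1.62, SE 0.06, limma adjusted p 0.00648), and Col1a1, the alpha 1 chain of type I collagen, 2.33-fold lower (log2 -1.22, SE 0.14, limma adjusted p 0.0216).

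Among 32 cytoplasmic partners, 30 were tested, 2 being higher in set 2 and 4 lower, and the median difference was -0.06. This count is near the 19% of all genes that passed. Tns1, tensin 1, which binds beta tails and actin, was 3.16-fold higher (log2 1.66, SE 0.06, limma adjusted p 0.00648), at 1.74 and 1.69 in set 2 against 0.10 and 0.01 in set 1. Tns3, another tensin, was higher by 0.37 (SE 0.06, limma adjusted p 0.034). Ptk2b, the focal adhesion kinase relative Pyk2, was 2.40-fold lower (log2 -1.26, SE 0.05, limma adjusted p 0.00648). Vcl, vinculin, and Zyx, zyxin, which join actin at focal adhesions, were lower by 0.54 and 0.48 on the log2 scale (limma adjusted p 0.0177 and 0.0361). The remaining 24 did not pass. The talin gene Tln1 and the integrin-linked kinase Ilk were among them.

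Of 12 membrane partners, 2 passed, which is near the 19% of all genes. Cd82, a tetraspanin that associates with integrins, was 1.58-fold higher in set 2 (log2 0.66, SE 0.06, limma adjusted p 0.0147), and its 4 probes gave 0.66 to 0.79. Plaur, the urokinase receptor, was 1.56-fold lower (log2 -0.64, SE 0.06, limma adjusted p 0.0161). With the treatment as a block, 4 ligands, 3 cytoplasmic and 2 membrane partners passed. With 1 array left out, 0 to 2 ligands, 0 to 2 cytoplasmic and 0 membrane partners did.

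With Cdh1, 0 of the 25 ligands, 30 cytoplasmic partners and 12 membrane partners tested passed the adjusted threshold, beside 0% of all genes, and 1 of the ligands had an unadjusted p under 0.05. Among genes with the same sign in both sets, the largest and smallest differences were 0.10 for Lama5 and -0.67 for Fbn1 in the ligands, 0.08 for Tns2 and -0.11 for Lims1 in the cytoplasmic partners, and 0.07 for Plaur and -0.25 for Cav1 in the membrane partners. Fbn1, fibrillin 1, was that ligand (limma unadjusted p 0.0216). Its probe was well above background on only 2 arrays, both of the same treatment group, and passed the filter through these alone. The values of the other group were not well above background, so neither this difference nor its p is a result.

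**Figure D4:**
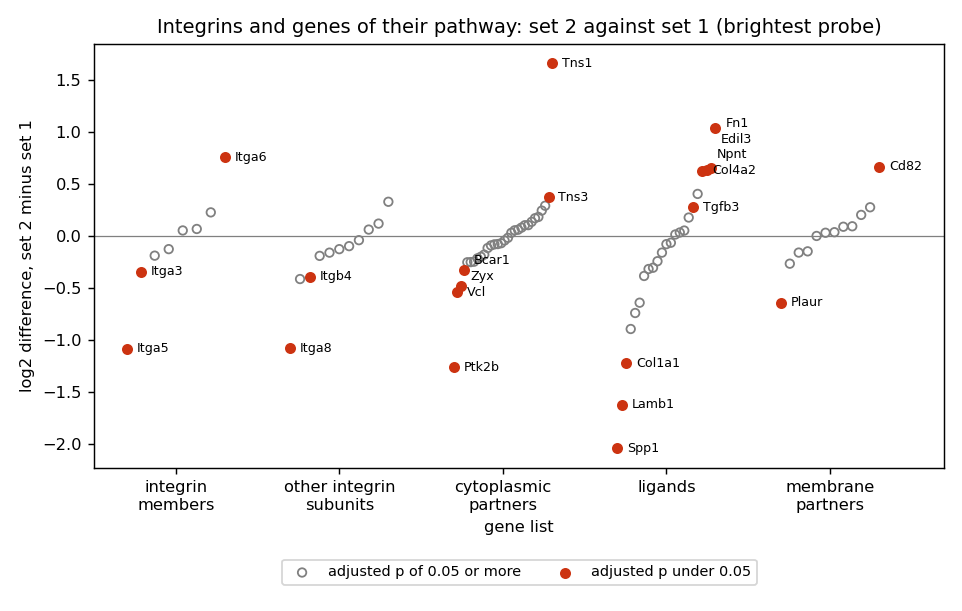
The log2 difference of set 2 minus set 1 (y axis) of the brightest probe of each tested gene is plotted for 5 gene lists (x axis), ordered by difference within a list, with filled red points for an adjusted p under 0.05 and open grey points otherwise. Red points lie on both sides of 0 in each list but that of the other integrin subunits, where Itga8 and Itgb4 are both below it.

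Some markers of the pigment cell lineage also differed between the sets. Of the 7 melanocyte markers, 3 passed and 4 did not, beside 19% of all genes, and the 3 were lower in set 2: Tyr, tyrosinase, by 1.77, Pmel by 0.42 and Mitf by 0.39 on the log2 scale. The median difference of the 7 was -0.21, and Sox10 stood at 0.20, which did not pass (limma adjusted p 0.0858) but did with quantile normalization and with normexp. Mitf did not pass with quantile normalization, median centring or the authors' table as deposited. All 7 passed with the trend and robust prior. With the treatment as a block Tyr alone of the 7 passed, and with any 1 array left out or without the filter 0 did. The mean signal of the 7, to which Tyr contributes most of the difference, was 6.96 and 6.92 on the arrays of set 1 and 6.53 on both arrays of set 2. Of the 5 fibroblast markers, 3 were tested and Col1a1 and Pdgfra passed, both lower in set 2, while Dcn and Lum were well above background on no array. Pdgfra did not pass with quantile normalization, median centring, normexp, the trend and robust prior or the treatment as a block, where Col1a1 did. Without the filter neither passed. The mean signal of all 5, which includes the dim values of Dcn and Lum, was -4.21 and -4.27 in set 1 and -4.60 and -4.52 in set 2. The brightest probes of Mitf and Pdgfra lay in the last 24 rows of spots. The part of either list in the integrin differences was not tested.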

How the data were processed

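The authors read 4 one-colour Agilent arrays with Feature Extraction version 12.0.3.1, per the submitters' processing notes. Per the file headers, the deposited files hold a processed intensity for each spot, with background subtracted and trends removed within the array, an estimate of its error, and flags; the arrays share 1 slide and 1 scan. The authors' deposited table of intensities was each processed intensity times 1 factor per array (0.873 to 0.930).

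Log2 intensities were scaled to each array's 75th percentile over non-control spots. Marked outlier spots were dropped, repeated spots averaged, and probes marked well above background on each array of at least 1 group (or set) were tested with limma 3.58.1 in R 4.3.3, unpaired, on all 4 arrays, with Benjamini-Hochberg adjustment at 0.05. Probes missing a value on any array were not tested. Alternatives changed the scaling, background correction (normexp with an offset of 50 on median spot signals, in place of the planned mean signals), filter, prior, block and arrays used. Accessions were matched to RefSeq genes of GRCm38.p6, without versions, which named 33767 of 56605 probes; no coordinates were taken from that match, since the headers give mm9. The scripts were tested on simulated data.

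The labels pair the arrays by set: over 31155 probes, deviations from the group means correlated at 0.744 within a set. All 10 integrins are named. Further genes were named by rule: other subunits well above background, with Itgae and Itgb7, and from each pathway list the 3 called genes furthest apart between sets in each direction and the largest Cdh1 difference in each direction. A further few were named after their values were seen (Tln1, Ilk). Members and lists were chosen with earlier results of these data known.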

Additional observations from a re-analysis of the deposited data

How the results depend on the processing

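Between Cdh1 and control, 0 probes and 0 integrin probes passed (limma) under every alternative run: quantile normalization, median centring, normexp with quantile normalization, the authors' table scaled alike or as deposited (the latter chosen after seeing the data), no filter, the filter on every array, the spots before the last 24 rows, the trend and robust prior, the set number as replicate block and each array left out (0 to 0). Unadjusted, 561 probes were under 0.05, and 2335 with the replicate block, which changed no call (0 of 14 integrin probes). Of 120 values of single integrin genes, 103 gave the same sign and call and 17 reversed, and the lowest adjusted p was 0.777. Itga3 was -0.0060 with quantile normalization and -0.0049 with median centring, Itga4 0.0068 with quantile normalization and 0.014 with the authors' table as deposited, and Itgb3 0.017 when its probes were averaged. With 1 array left out, Itga3 ranged from -0.14 to 0.22, Itga4 from -0.13 to 0.11, Itga5 from -0.42 to 0.71, Itga6 from -0.46 to 0.41, Itgav from -0.17 to 0.030 and Itgb1 from -0.12 to 0.052; such a fit compares 2 arrays with 1, so that the set difference enters it by construction.

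Between the sets, the 5095 probes called became 11194 with the trend and robust prior, 9032 with normexp, 2165 with the treatment as a block, 0 without the filter and 0 to 409 with 1 array left out; the cause was not tested, apart from the fewer samples in the last. The share called higher was 44.1%, 50.9% with normexp, 53.0% with the table as deposited, and 28.1% and 22.9% of the few calls left without control or Cdh1 replicate 2. Scaling moved the median of all probes by less than 0.1. The 4 integrin probes became 8 with the prior, 1 with the block, 0 without the filter and 0 to 0 with 1 array left out, and were 3 to 5 under the other alternatives. Itga3 was also not called with median centring (limma adjusted p 0.0559), normexp (0.117), the authors' table as deposited (0.0547) or the mean of its probes (0.217). Itga4 was called with quantile normalization (0.0432), normexp (0.0112), the table as deposited (0.0488), the prior (0.00178) and the mean of its probes (0.0386). None of the 120 values reversed. The 6 cytoplasmic partners, 8 ligands and 2 membrane partners called became 10, 14 and 5 with normexp, 14, 15 and 6 with the prior and 0 each without the filter. Slide and scan gave no block, there being 1 of each. Signal over background limits Itga2 and Itgb8, for which no difference could be measured, and the dim probes of Itga3, Itga4, Itga6 and Itgb3. The probes called lower in set 2 were also of low intensity, at 66.8 to 144 for Itga5 and 71.5 to 86.2 for Itga3. With normexp their differences were smaller, at -0.67 and -0.13. The normexp run added an offset of 50 to the intensities, which shrinks log2 differences of dim probes by construction. The part of the background correction itself was not tested.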
